A study of Mus musculus with 8 samples.

Results

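Cardiac fibroblasts that carried Cre in the Tcf21 lineage were compared with and without the TGF-beta receptor genes Tgfbr1 and Tgfbr2. The comparison took 4 libraries of one sequencing run, out of 8 in the study: Tcf21-Cre control libraries HK6 and HK7, and double knockout (DKO) libraries HK2 and HK4. In control mice, MerCreMer, a Cre that acts after tamoxifen, sat in the Tcf21 locus and a Cre-dependent eGFP reporter in the Rosa locus, and DKO mice had loxP-flanked Tgfbr1 and Tgfbr2 in addition. Whether the control mice carried any loxP-flanked allele is not given in the sources used here. All mice were 8 to 10 weeks old at transverse aortic constriction (TAC), a surgical narrowing of the aorta that loads the heart with pressure, and cells were taken 4 weeks later. Tamoxifen was given to controls and DKO mice alike, at 100 mg/kg on 2 days, followed by tamoxifen chow (40 mg/kg). There was no unoperated group, so every value below is from a loaded heart. GFP-positive cells of the ventricles were sorted, so the cells are those in which Cre had recombined the reporter. The other 4 libraries of the study, Smad2/3 DKO against Postn-Cre control, enter the test of a difference between the effects and an alternative fit of all 8 libraries.

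TGF-beta ligands are stored in the matrix in a latent form and, once released, bind a receptor complex of TGFBR2 and TGFBR1. TGFBR1 then phosphorylates Smad2 and Smad3, which join Smad4 and act on target genes. The receptors also feed MAP kinase pathways. In the heart this signalling is known for turning resident fibroblasts, which express Tcf21, into contractile, matrix-secreting myofibroblasts marked by Postn and Acta2.

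Library totals ran from 29192047 to 32594664 counts, and levels are given as CPM, counts per 1000000 counts of the library, on which scale 3 counts are 0.092 to 0.103. Of 16661 genes tested with edgeR's quasi-likelihood F test, 657 (3.94%) passed an adjusted p of 0.05, 439 (2.63%) higher and 218 (1.31%) lower in the DKO libraries. The median log2 fold change over all tested genes was -0.01. Leaving out DKO HK4, control HK7 or DKO HK2 left 273, 316 and 348 calls and leaving out control HK6 left 492, and 146 of the 657 genes kept their call in all 4 such fits (116 higher, 30 lower). The 2 libraries of each group differed beyond sampling noise, and the labels do not say whether they came from separate animals or pools, so the p-values speak only of the spread among these libraries, which may be technical. The fold changes followed transcript length and GC content: over 4 equal bins of genes, the median was 0.13 for the shortest transcripts and -0.14 for the longest, and -0.13 for the lowest GC and 0.14 for the highest. With both trends removed, an alternative chosen after seeing the data, 453 genes (2.72%) passed. The groups did not overlap in CPM for 51.2% of tested genes, so separation of 2 libraries from 2 is common here. In bulk RNA, fewer cells of a type and less RNA per cell cannot be told apart. Values are given as CPM in control HK6 and HK7, then in DKO HK2 and HK4. Fold changes are log2, DKO minus control, with their standard error (SE), and adjusted p-values are from edgeR, n = 2 libraries per group.

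The targeted genes showed no detected loss of total counts. Tgfbr1 (chromosome 4, 47353222 to 47414931, GRCm38) encodes the type I receptor and went from 229 and 238 to 181 and 193 CPM (log2 fold change -0.24 ± 0.19, adjusted p = 0.533). Tgfbr2 (chromosome 9, 116084293 to 116175360) encodes the type II receptor and went from 370.1 and 406 to 471 and 406 CPM (log2 fold change 0.25 ± 0.20, adjusted p = 0.535). The DKO libraries were both below the controls for Tgfbr1, with no overlap as in 51.2% of all tested genes, and the groups overlapped for Tgfbr2. Cre removes the exons between loxP sites, which the sources used here do not name, and a count that covers all exons does not show their loss, so the labels were taken as given. Tcf21, the gene that drives Cre, went from 163 and 111 to 120.4 and 129 CPM (log2 fold change -0.04 ± 0.21, adjusted p = 0.939), with overlapping groups.

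**Figure D1:**
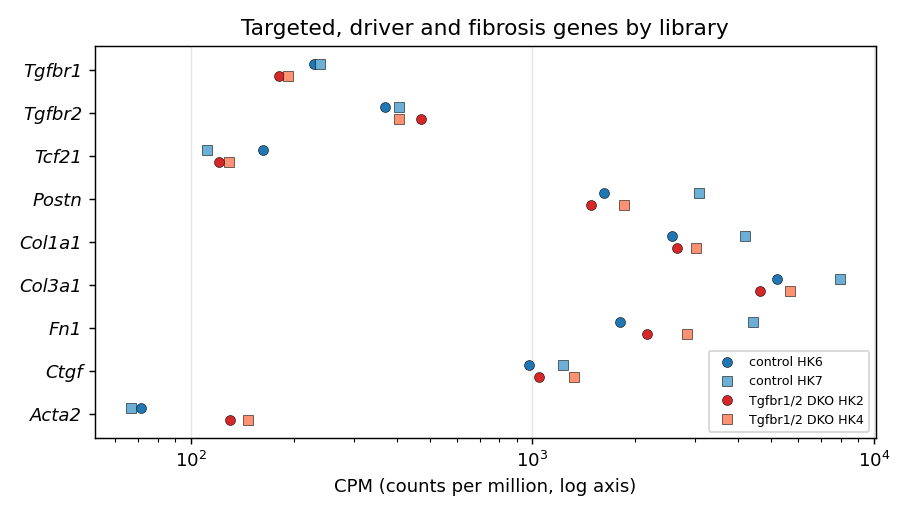
CPM of the targeted genes, the driver gene and 6 fibrosis genes in each library, on a log axis; blue points are the 2 control libraries and red points the 2 DKO libraries. The groups overlap for Tgfbr2, Tcf21, Postn, Col1a1, Col3a1, Fn1 and Ctgf, while both DKO libraries lie above both controls for Acta2. No overlap was seen for 51.2% of all tested genes.

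Few other genes of the TGF-beta pathway passed. Of 34 tested ligands, latent binding proteins, receptors, Smads and regulators, 1 was higher (2.94%, against 3.94% of all tested genes called), none lower and 33 did not pass, with a median of -0.09 (0.02 without DKO HK2 and 0.009 without control HK7). The 1 was Eng, a co-receptor of TGF-beta that is abundant on endothelium, which rose from 189.7 and 172 to 311 and 279 CPM (log2 fold change 0.78 ± 0.18, adjusted p = 0.0423). The ligand genes gave values of 0.52 for Tgfb1, 0.01 for Tgfb2 and -0.82 for Tgfb3 (adjusted p = 0.194, 0.981 and 0.342). The signal transducers gave -0.03 for Smad2, -0.27 for Smad3 and -0.02 for Smad4 (adjusted p = 0.948, 0.421 and 0.959). Of the feedback inhibitors of the pathway, 3 chosen after their values were seen did not pass. Smad7 went from 67.8 and 93.9 to 51.6 and 66.6 CPM (adjusted p = 0.442), Skil from 489 and 655 to 269.9 and 377 CPM (adjusted p = 0.164) and Pmepa1 from 579 and 659 to 392 and 422 CPM (adjusted p = 0.204). Both DKO libraries lay below both controls for these 3 genes, and the groups did not overlap in 51.2% of all tested genes. Leaving out 1 library ended the call of Eng in all 4 cases (adjusted p up to 0.164), and left 0 (without control HK7, DKO HK2 or DKO HK4) to 1 (without control HK6) pathway genes lower. Other settings ended calls in the fit of all 8 libraries, without robust estimation and with the length and GC trends removed for Eng.

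Known TGF-beta target genes went in both directions. Of 30 tested, 5 were higher, 1 was lower and 24 did not pass. The median was -0.12, but -0.39 without control HK6, 0.49 without control HK7 and 0.07 without DKO HK2. Angptl4, an inhibitor of lipoprotein lipase, went from 15.3 and 18.992 to 141 and 133 CPM (log2 fold change 3.08 ± 0.21, adjusted p = 7.45e-05). Timp1, an inhibitor of matrix metalloproteinases, went from 104 and 123 to 938 and 829 CPM (log2 fold change 3.03 ± 0.23, adjusted p = 1.23e-04). Tnc, the matricellular glycoprotein tenascin-C of wounds, went from 183 and 267 to 1164 and 1309.9 CPM (log2 fold change 2.54 ± 0.27, adjusted p = 0.00125). Adam12, a metalloprotease of activated fibroblasts, went from 14.1 and 9.38 to 60.1 and 58.3 CPM (log2 fold change 2.42 ± 0.23, adjusted p = 4.94e-04). In each of these 4 genes the lowest DKO library was more than 3 times the highest control library. Acta2, the smooth muscle actin of myofibroblasts, rose less, from 71.6 and 66.5 to 130.5 and 147 CPM (log2 fold change 1.09 ± 0.19, adjusted p = 0.0141). Tgfbi, a matrix adhesion protein named for its induction by TGF-beta, fell from 429.8 and 424 to 194 and 190.4 CPM (log2 fold change -1.07 ± 0.19, adjusted p = 0.0163), with both libraries of each group close together. Ctgf went from 974 and 1226 to 1047 and 1327 CPM (log2 fold change 0.19 ± 0.25, adjusted p = 0.723). Omitting a single library ended the call of Acta2 without control HK7 or DKO HK4 and of Tgfbi without control HK7, DKO HK2 or DKO HK4 (adjusted p up to 0.0938), and left 4 (without DKO HK4) to 6 (without control HK7) target genes higher. Further calls were lost in the fit of all 8 libraries for Acta2.

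Fibrillar collagens, the load-bearing fibres of scar, did not fall in the test. Of 11 chains, 1 was higher, none lower and 10 did not pass (9.09% called, against 3.94% of all tested genes, median -0.19). Col1a1 went from 2569 and 4204 to 2644 and 3005 CPM (log2 fold change -0.19 ± 0.29, adjusted p = 0.777) and Col3a1 from 5187 and 7961 to 4627 and 5666 CPM (log2 fold change -0.28 ± 0.30, adjusted p = 0.658). In both, control HK7 was the highest library, and control HK6 was the lowest for Col1a1 and lay between the DKO libraries for Col3a1. Fn1, the fibronectin gene, went from 1802 and 4432 to 2172 and 2842 CPM (log2 fold change -0.24 ± 0.47, adjusted p = 0.825), with HK7 highest and HK6 lowest. Postn went from 1615 and 3076 to 1489 and 1858 CPM (log2 fold change -0.41 ± 0.35, adjusted p = 0.563), with HK7 highest and HK6 between the DKO libraries. The signs rested on control HK7: leaving out 1 library moved the value between -0.83 and 0.20 for Postn, -0.53 and 0.28 for Col1a1, -0.59 and 0.14 for Col3a1, and -0.78 and 0.63 for Fn1. The list median was -0.53 without control HK6 and 0.14 without control HK7. Col5a3, a minor chain of type V collagen, rose from 105 and 104 to 195 and 157 CPM (log2 fold change 0.83 ± 0.18, adjusted p = 0.0333). Its partner chains Col5a1 and Col5a2 had values of 0.33 and -0.05 (adjusted p = 0.464 and 0.940). Removal of 1 library ended the call of Col5a3 in all 4 cases (adjusted p up to 0.162), and left 0 chains higher. Calls were lost as well without robust estimation for Col5a3.

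Chains of type IV collagen, the network of basement membranes, moved in both directions. Of 20 tested chains of basement membrane and other collagens (21 listed), 3 were higher and 3 lower. That is 30.0% called, against 3.94% of all tested genes. The common chains rose: Col4a1 went from 1120.2 and 843 to 2066 and 1937 CPM (log2 fold change 1.11 ± 0.23, adjusted p = 0.0250) and Col4a2 from 803 and 841 to 1675 and 1500.1 CPM (log2 fold change 1.03 ± 0.21, adjusted p = 0.0284). The chains of the second type IV network fell: Col4a3 went from 263 and 166 to 35.4 and 26.2 CPM (log2 fold change -2.71 ± 0.24, adjusted p = 3.48e-04), Col4a4 from 47.5 and 32.4 to 18.8 and 10.8 CPM (log2 fold change -1.36 ± 0.27, adjusted p = 0.0241) and Col4a5 from 178 and 123 to 73.3 and 63.4 CPM (log2 fold change -1.05 ± 0.20, adjusted p = 0.0211). Col4a1 and Col4a2 lie head to head on their chromosome, as do Col4a3 and Col4a4, and the partners of each pair moved the same way. Col4a6 went from 44.4 and 20.9 to 22.9 and 17.4 CPM (adjusted p = 0.326), and Col18a1, the source of endostatin, rose from 37.1 and 26.7 to 59.9 and 49.1 CPM (log2 fold change 0.86 ± 0.20, adjusted p = 0.0448). Type VI chains had values of 0.12, 0.22 and 0.15 for Col6a1, Col6a2 and Col6a3 (adjusted p = 0.818, 0.641 and 0.783). The leave-one-out fits ended the call of Col4a1 and Col18a1 without control HK7, DKO HK2 or DKO HK4, of Col4a2 in all 4 cases, of Col4a4 without control HK6 or DKO HK4 and of Col4a5 without control HK6, DKO HK2 or DKO HK4 (adjusted p up to 0.178), and left 0 (without control HK7, DKO HK2 or DKO HK4) to 2 (without control HK6) chains higher and 1 (without DKO HK4) to 3 (without control HK6 or control HK7) chains lower. Calls also ended in the fit of all 8 libraries and with the length and GC trends removed for Col4a4 and Col18a1, and without robust estimation for Col18a1.

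A minority of proteoglycan genes was lower, among them 3 neighbouring genes of small proteoglycans that bind collagen fibrils. Of 23 proteoglycan genes, 5 fell, 1 rose and 17 did not pass (26.1% called, against 3.94% of all tested genes). The median of -0.22 was 0.07 without control HK7. Ogn (osteoglycin) went from 651 and 947 to 313 and 241 CPM (log2 fold change -1.47 ± 0.25, adjusted p = 0.0145). Omd (osteomodulin) went from 20.2 and 30.9 to 9.85 and 9.65 CPM (log2 fold change -1.32 ± 0.28, adjusted p = 0.0286). Aspn (asporin), which binds TGF-beta, went from 444 and 779.8 to 249.8 and 223 CPM (log2 fold change -1.31 ± 0.29, adjusted p = 0.0431). These 3 genes are neighbours on chromosome 13 (49544443 to 49624501). The membrane-anchored glypican Gpc6 fell from 617 and 701 to 299.9 and 289 CPM (log2 fold change -1.08 ± 0.21, adjusted p = 0.0217), and Gpc3 had a log2 fold change of -1.62 (adjusted p = 0.0407). Prg4 (lubricin), a secreted lubricant, rose from 1011 and 723 to 1776 and 2221 CPM (log2 fold change 1.30 ± 0.25, adjusted p = 0.0222). Of 46 matricellular and glycoprotein genes (13.0% called), 2 rose (Tnc and Efemp2) and 4 fell (Tgfbi, Smoc1, Wisp2 and Eln). Smoc1, a calcium-binding matricellular protein that antagonises BMP, fell from 44.2 and 34.6 to 8.44 and 11.9 CPM (log2 fold change -1.86 ± 0.26, adjusted p = 0.00588). Wisp2, a CCN family member, fell from 58.8 and 73.3 to 26.8 and 24.4 CPM (log2 fold change -1.29 ± 0.21, adjusted p = 0.00964). Elastin (Eln) fell from 77.7 and 72.6 to 36.9 and 38.1 CPM (log2 fold change -0.92 ± 0.18, adjusted p = 0.0234), while Efemp2 (fibulin-4), needed for elastic fibre assembly, rose from 43.9 and 43.4 to 83.7 and 74.5 CPM (log2 fold change 0.94 ± 0.18, adjusted p = 0.0207). Fits without 1 library ended the call of Ogn and Prg4 without control HK7 or DKO HK4, of Omd, Aspn, Gpc6, Gpc3 and Eln without control HK7, DKO HK2 or DKO HK4 and of Efemp2 in all 4 cases (adjusted p up to 0.155), and left 0 (without DKO HK4) to 5 (without control HK6) proteoglycans lower and 2 (without control HK7, DKO HK2 or DKO HK4) to 4 (without control HK6) matricellular genes lower. Other settings ended calls with the length and GC trends removed for Omd and Aspn, and without robust estimation for Aspn, and in the fit of all 8 libraries for Gpc3, Wisp2, Eln and Efemp2.

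Some proteases, protease inhibitors and collagen processing enzymes were higher. Of 25 tested proteases and inhibitors (26 listed), 6 rose, 1 (Adamts10) fell and 18 did not pass (median 0.38). That is 28.0% called, against 3.94% of all tested genes. Beside the inhibitors Timp1 and Serpine2 and the protease Adam12, Plau, the urokinase that activates plasminogen, went from 20.6 and 20.9 to 60.7 and 70.7 CPM (log2 fold change 1.75 ± 0.21, adjusted p = 0.00225). The stromelysin gene Mmp3 went from 1.75 and 0.924 to 9.63 and 12.5 CPM (log2 fold change 3.15 ± 0.40, adjusted p = 0.00325) and Mmp19 from 48.2 and 34.5 to 109.7 and 91.5 CPM (log2 fold change 1.37 ± 0.20, adjusted p = 0.00665). Every DKO library was above every control library in these 3 genes, but groups did not overlap in 51.2% of all tested genes. Of 24 collagen processing enzymes, 4 rose, none fell and 20 did not pass (16.7% called, median 0.44). The collagen chaperone Serpinh1 went from 503.05 and 446 to 945 and 894 CPM (log2 fold change 1.04 ± 0.20, adjusted p = 0.0231). The lysyl hydroxylase Plod3, the crosslinking transglutaminase Tgm2 and the prolyl isomerase Fkbp10 rose by 1.06, 1.08 and 0.85 (adjusted p = 0.0176, 0.0222 and 0.0412). Dropping 1 library ended the call of Adamts10 without control HK6 or DKO HK4, of Serpine2 and Plod3 without control HK6, control HK7 or DKO HK4, of Serpinh1 and Fkbp10 in all 4 cases and of Tgm2 without control HK7 or DKO HK4 (adjusted p up to 0.244), and left 0 (without DKO HK4) to 2 (without control HK6 or DKO HK2) processing enzymes higher. Further calls were lost with the length and GC trends removed for Serpinh1 and Fkbp10, and in the fit of all 8 libraries and without robust estimation for Fkbp10.

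Part of the actin cytoskeleton genes of myofibroblasts was higher. Of 30 tested, 10 were higher, 1 lower and 19 did not pass (36.7% called, against 3.94% of all tested genes). The median was 0.36, against -0.01 over all genes. Itga5, the fibronectin receptor subunit, went from 232 and 165 to 476 and 611 CPM (log2 fold change 1.55 ± 0.24, adjusted p = 0.00884). Actg1, a cytoplasmic actin, went from 756 and 783 to 1620.1 and 1723 CPM (log2 fold change 1.20 ± 0.22, adjusted p = 0.0186), and Actb from 2460.5 and 2249.9 to 4669 and 4553 CPM (log2 fold change 1.05 ± 0.23, adjusted p = 0.0322). Reads can be split between these near-identical actins. Srf, the transcription factor that drives actin genes, went from 41.3 and 39.9 to 80.7 and 75.0 CPM (log2 fold change 1.02 ± 0.18, adjusted p = 0.0147), and the calponin Cnn2 from 30.4 and 32.5 to 67.5 and 52.2 CPM (log2 fold change 1.00 ± 0.19, adjusted p = 0.0222). The tropomyosins Tpm2 and Tpm4, Flna (filamin A) and Myh9 (nonmuscle myosin IIA) rose by 1.02, 1.05, 0.95 and 0.94 (adjusted p = 0.0345, 0.0290, 0.0336 and 0.0322). Myh10, nonmuscle myosin IIB, fell from 236 and 267 to 123 and 129 CPM (log2 fold change -0.91 ± 0.20, adjusted p = 0.0304). Tagln went from 20.7 and 26.9 to 38.6 and 38.4 CPM (adjusted p = 0.0886) and Cnn1, a smooth muscle calponin, from 1.30 and 2.74 to 2.02 and 2.04 CPM (adjusted p = 0.956). Leaving out 1 library ended the call of Itga5 without control HK7, of Actg1 and Tpm4 without control HK6, control HK7 or DKO HK4, of Actb, Flna and Myh9 in all 4 cases, of Srf without DKO HK4, of Cnn2 without control HK6, control HK7 or DKO HK2, of Tpm2 without control HK6 or DKO HK4 and of Myh10 without control HK7, DKO HK2 or DKO HK4 (adjusted p up to 0.196), and left 2 (without control HK7 or DKO HK4) to 6 (without DKO HK2) cytoskeletal genes higher. Calls were lost as well with the length and GC trends removed for Actb, Tpm2 and Myh10, and in the fit of all 8 libraries for Cnn2, Tpm2 and Myh9, and without robust estimation for Tpm2.

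Secreted proteins of the acute-phase response, which liver and stroma make under inflammatory cytokines, held 4 of the 12 largest rises among named, called genes with at least 10 CPM in the higher group (Serpina3m, Saa3, Serpina3g and Lcn2). Of 23 tested acute-phase genes (24 listed), 11 rose, none fell and 12 did not pass, with a median of 1.37. That is 47.8% called, against 3.94% of all tested genes. Serpina3n, a secreted serine protease inhibitor, went from 192 and 231 to 1708 and 1541 CPM (log2 fold change 3.02 ± 0.24, adjusted p = 1.51e-04). Serpina3m went from 0.411 and 0.274 to 55.0 and 65.2 CPM (log2 fold change 7.53 ± 0.32, adjusted p = 3.59e-06) and Serpina3g from 1.44 and 1.75 to 44.4 and 44.6 CPM (log2 fold change 4.88 ± 0.27, adjusted p = 2.17e-05). They belong to a run of 7 neighbouring genes on chromosome 12 (104236245 to 104414329), Serpina3g, h, i, j, k, m and n, all of which rose. These genes are close copies, so the counting can pass reads of one to another, and how the 7 share the rise is uncertain.

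The bases before the start of 2 genes of that run are shown because the run rose together, from RefSeq on GRCm38.p6, plus strand, 250 bases each, 5′ to 3′. Capitals mark each match, on either strand, to CAGAC, the short site that Smad3 and Smad4 bind, and to TTCNNNGAA, the palindrome that STAT factors bind.
Serpina3g, chr12:104235897-104236146: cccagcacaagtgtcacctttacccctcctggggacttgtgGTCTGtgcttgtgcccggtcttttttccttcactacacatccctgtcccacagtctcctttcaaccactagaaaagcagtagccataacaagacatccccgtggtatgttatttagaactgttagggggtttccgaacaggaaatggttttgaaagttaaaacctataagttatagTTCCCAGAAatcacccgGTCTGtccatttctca
Serpina3n, chr12:104406458-104406707: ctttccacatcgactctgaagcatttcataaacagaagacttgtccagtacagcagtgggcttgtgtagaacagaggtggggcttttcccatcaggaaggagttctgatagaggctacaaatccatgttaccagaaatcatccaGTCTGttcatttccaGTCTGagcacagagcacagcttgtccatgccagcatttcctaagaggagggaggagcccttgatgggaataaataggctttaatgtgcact
Serpina3g held CAGAC at -209 and -16 and TTCNNNGAA at -33, and Serpina3n held CAGAC at -106 and -91, counted from -1 at the last base before the start. All 4 CAGAC matches read GTCTG on the shown strand. These are matches of letters, and 45.8% of all genes with a promoter in the table hold CAGAC in any of their promoters.

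The other acute-phase genes named here rose, most of them from near 0 CPM. Lcn2 (lipocalin 2), which binds bacterial siderophores, went from 1.68 and 1.10 to 27.1 and 24.5 CPM (log2 fold change 4.30 ± 0.30, adjusted p = 8.30e-05). The serum amyloid gene Saa3 went from 0.788 and 0.103 to 14.5 and 13.2 CPM (log2 fold change 5.04 ± 0.63, adjusted p = 0.00864). Hp (haptoglobin), which binds free haemoglobin, had 3 and 1 counts in the controls and 206 and 215 in the DKO libraries, 6.32 and 7.18 CPM (adjusted p = 3.96e-04). Saa1 had no count in either control and 24 and 16 counts in the DKO libraries, at least 6.18-fold higher when 3 counts per control library are taken as the floor. The metallothionein Mt2 rose from 323 and 255 to 626 and 767 CPM (log2 fold change 1.37 ± 0.23, adjusted p = 0.0123) and Lrg1 from 0.0685 and 0.342 to 1.75 and 2.34 CPM (log2 fold change 3.36 ± 0.79, adjusted p = 0.0441). The regulators of the response did not pass: Stat3 went from 516 and 372 to 473 and 542 CPM (adjusted p = 0.519), Socs3 from 146 and 198 to 239 and 182 CPM (adjusted p = 0.404) and Cebpb from 11.4 and 12.3 to 11.5 and 14.3 CPM (adjusted p = 0.719). Removing the length and GC trends left 8 of the list higher. Summed myeloid markers were 67.2 and 108 CPM in the control libraries and 265 and 273 CPM in the DKO libraries, and their part in these rises was not tested. Omitting a single library ended the call of Saa1 in all 4 cases, of Mt2 without control HK7 or DKO HK4 and of Lrg1 without control HK6 or DKO HK4 (adjusted p up to 0.168), and left 7 (without DKO HK4) to 11 (without DKO HK2) acute-phase genes higher. Calls also ended in the fit of all 8 libraries for Saa1 and Lrg1, and with the length and GC trends removed for Saa1, Mt2 and Lrg1, and without robust estimation for Lrg1.

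**Figure D2:**
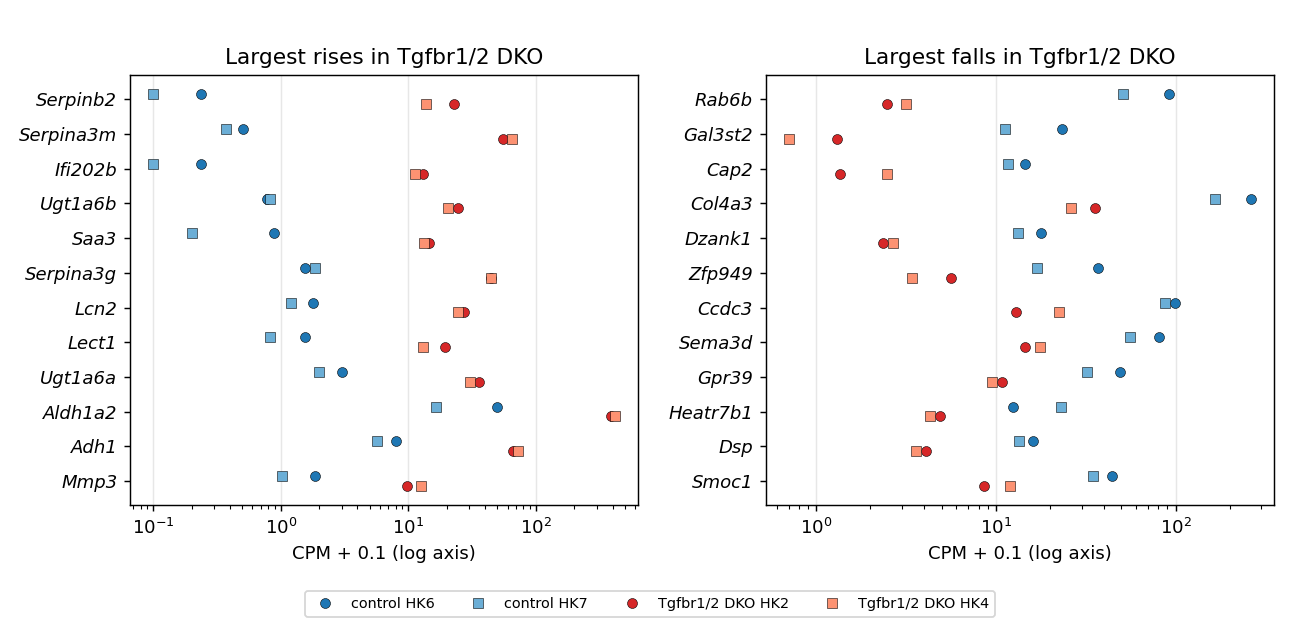
CPM with 0.1 added, on a log axis, of the 12 largest rises (left) and 12 largest falls (right) among genes past the threshold with at least 10 CPM in the higher group. Predicted genes (Gm or Rik names) and pseudogenes were left out. Blue points are control and red points DKO libraries. Genes were picked only where the groups did not overlap, as in 51.2% of all tested genes, so no DKO library crosses a control library. Serpinb2 and Ifi202b sit at the left edge in control HK7, where they had no count.

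Serpinb2, an inhibitor of urokinase, had 4 and 0 counts in the controls and 741 and 406 in the DKO libraries, 22.7 and 13.6 CPM (adjusted p = 4.00e-04). Ifi202b, an interferon-inducible gene of the p200 family, had 4 and 0 counts against 421 and 334 (adjusted p = 3.48e-04). Fitted fold changes of such genes depend on the prior count, and without control HK6 those of Serpinb2 and Ifi202b ran to 12.12 and 11.54, so the counts are the better guide. Lect1 (chondromodulin), a cartilage protein that blocks vessel growth, went from 1.44 and 0.719 to 19.3 and 13.0 CPM (log2 fold change 3.98 ± 0.39, adjusted p = 6.48e-04). Adh1, an alcohol dehydrogenase that oxidises retinol, went from 7.91 and 5.54 to 66.0 and 72.4 CPM (log2 fold change 3.45 ± 0.24, adjusted p = 7.45e-05). Both DKO libraries were many times above both controls in all 4 genes.

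Complement and chemokine genes rose in part. Of 17 tested complement genes (19 listed), 3 rose and 1 fell (23.5%, against 3.94% of all tested genes). C3, the central component, went from 1251 and 748 to 3796 and 3485 CPM (log2 fold change 1.96 ± 0.27, adjusted p = 0.00528), C2 from 6.58 and 5.24 to 19.7 and 19.9 CPM (log2 fold change 1.83 ± 0.26, adjusted p = 0.00630) and Cfb (factor B) from 10.9 and 6.64 to 18.5 and 22.6 CPM (log2 fold change 1.33 ± 0.29, adjusted p = 0.0325). C2 and Cfb are neighbours on chromosome 17 (34856374 to 34898265). C7, part of the membrane attack complex, fell from 229.7 and 158 to 69.7 and 69.3 CPM (log2 fold change -1.39 ± 0.20, adjusted p = 0.00709). Of 33 tested chemokine and cytokine genes (34 listed), 4 rose and none fell (12.1% called, median 0.68). Cxcl12, the ligand of Cxcr4, went from 98.9 and 69.1 to 257 and 238 CPM (log2 fold change 1.65 ± 0.20, adjusted p = 0.00280), and Cxcl14 from 15.5 and 14.2 to 52.4 and 56.3 CPM (log2 fold change 1.96 ± 0.20, adjusted p = 9.91e-04). Ptges, which makes prostaglandin E, rose from 17.1 and 13.4 to 52.0 and 43.6 CPM (log2 fold change 1.73 ± 0.21, adjusted p = 0.00247), and the cyclooxygenase Ptgs1 by 1.26 (adjusted p = 0.0432). Removal of 1 library ended the call of Cfb without control HK7 or DKO HK4 and of Ptgs1 in all 4 cases (adjusted p up to 0.203), and left 3 (without DKO HK4) to 8 (without control HK6 or DKO HK2) chemokine and cytokine genes higher and 2 (without control HK7 or DKO HK4) to 5 (without control HK6) complement genes higher. Other settings ended calls in the fit of all 8 libraries for C2, Cfb and Ptgs1, and without robust estimation and with the length and GC trends removed for Cfb and Ptgs1.

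Of 29 tested interferon-response and antigen-presentation genes (30 listed), 5 rose and none fell (17.2%, against 3.94% of all tested genes). The median was -0.11 (0.13 without control HK7 and 0.04 without DKO HK4). Beside 5 higher, DESeq2 had 1 gene of the list lower and the fit without the low-count filter had 3 lower. The 5 were the neighbours Ifitm1, Ifitm2 and Ifitm3 on chromosome 7, which block virus entry, and the class I antigens H2-D1 and H2-K1. Ifitm3 went from 1191 and 936 to 2271 and 2151 CPM (log2 fold change 1.14 ± 0.22, adjusted p = 0.0229) and H2-D1 from 477 and 634 to 1107 and 1022 CPM (log2 fold change 1.01 ± 0.23, adjusted p = 0.0415). Ifitm2, Ifitm1 and H2-K1 rose by 1.08, 1.34 and 0.93 (adjusted p = 0.0266, 0.0382 and 0.0447). Members of both families share sequence, so their counts can be split. With the length and GC trends removed, the list had 0 higher and 1 lower, and the log2 fold changes were 0.87 for Ifitm3, 0.79 for Ifitm2, 1.08 for Ifitm1, 0.81 for H2-D1 and 0.72 for H2-K1. The leave-one-out fits ended the call of Ifitm3 and Ifitm1 without control HK7, DKO HK2 or DKO HK4, of Ifitm2 and H2-K1 in all 4 cases and of H2-D1 without control HK6, DKO HK2 or DKO HK4 (adjusted p up to 0.244), and left 0 (without DKO HK2 or DKO HK4) to 2 (without control HK6) genes of the list higher. Further calls were lost with the length and GC trends removed for Ifitm3, Ifitm2, Ifitm1, H2-D1 and H2-K1, and in the fit of all 8 libraries for Ifitm1, and without robust estimation for Ifitm1, H2-D1 and H2-K1, and with DESeq2-type size factors for H2-K1.

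Genes of protein folding in the endoplasmic reticulum (ER), the entry to the secretory route, were higher in part. Of 27 tested, 10 were higher, none lower and 17 did not pass, and 26 had a log2 fold change above 0 (median 0.76). Over all 16661 tested genes, 8174 were above 0 and 3.94% were called, against 37.0% of the list. Sdf2l1, an ER cofactor induced when unfolded protein accumulates, went from 5.82 and 5.44 to 36.4 and 28.1 CPM (log2 fold change 2.59 ± 0.24, adjusted p = 4.00e-04). Creld2 and Manf, of the same response, went from 23.2 and 23.8 to 66.8 and 63.2 CPM (log2 fold change 1.54 ± 0.19, adjusted p = 0.00259) and from 28.4 and 28.3 to 70.6 and 71.9 CPM (log2 fold change 1.41 ± 0.19, adjusted p = 0.00418). Hyou1, a large Hsp70-like chaperone, went from 86.6 and 80.6 to 291 and 268 CPM (log2 fold change 1.82 ± 0.18, adjusted p = 8.69e-04), and the disulfide isomerase Pdia6 from 66.9 and 60.1 to 167 and 165 CPM (log2 fold change 1.47 ± 0.18, adjusted p = 0.00259). For each of these 5 genes the 2 libraries of a group were close and the groups far apart. Calr (calreticulin) rose from 278 and 321 to 642 and 667 CPM (log2 fold change 1.21 ± 0.21, adjusted p = 0.0154), Pdia4 from 128 and 129 to 239.5 and 266 CPM (log2 fold change 1.06 ± 0.19, adjusted p = 0.0180), and Sec61a1, Sec61b and Ssr2 of the translocon rose by 0.83, 1.18 and 0.83 (adjusted p = 0.0401, 0.0272 and 0.0391). Hspa5 (BiP), the main chaperone, went from 976 and 869 to 1195 and 1744 CPM (adjusted p = 0.130), and Xbp1 from 213 and 162 to 312 and 287 CPM (adjusted p = 0.0588). Fits without 1 library ended the call of Calr without control HK6 or DKO HK4, of Pdia4 without control HK6, control HK7 or DKO HK4, of Sec61a1 and Ssr2 in all 4 cases and of Sec61b without control HK6, control HK7 or DKO HK2 (adjusted p up to 0.207), and left 5 (without control HK6) to 7 (without DKO HK2) ER genes higher. Calls were lost as well without robust estimation for Sec61a1 and Ssr2, and with the length and GC trends removed for Sec61a1, Sec61b and Ssr2, and in the fit of all 8 libraries for Sec61b and Ssr2.

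**Figure D3:**
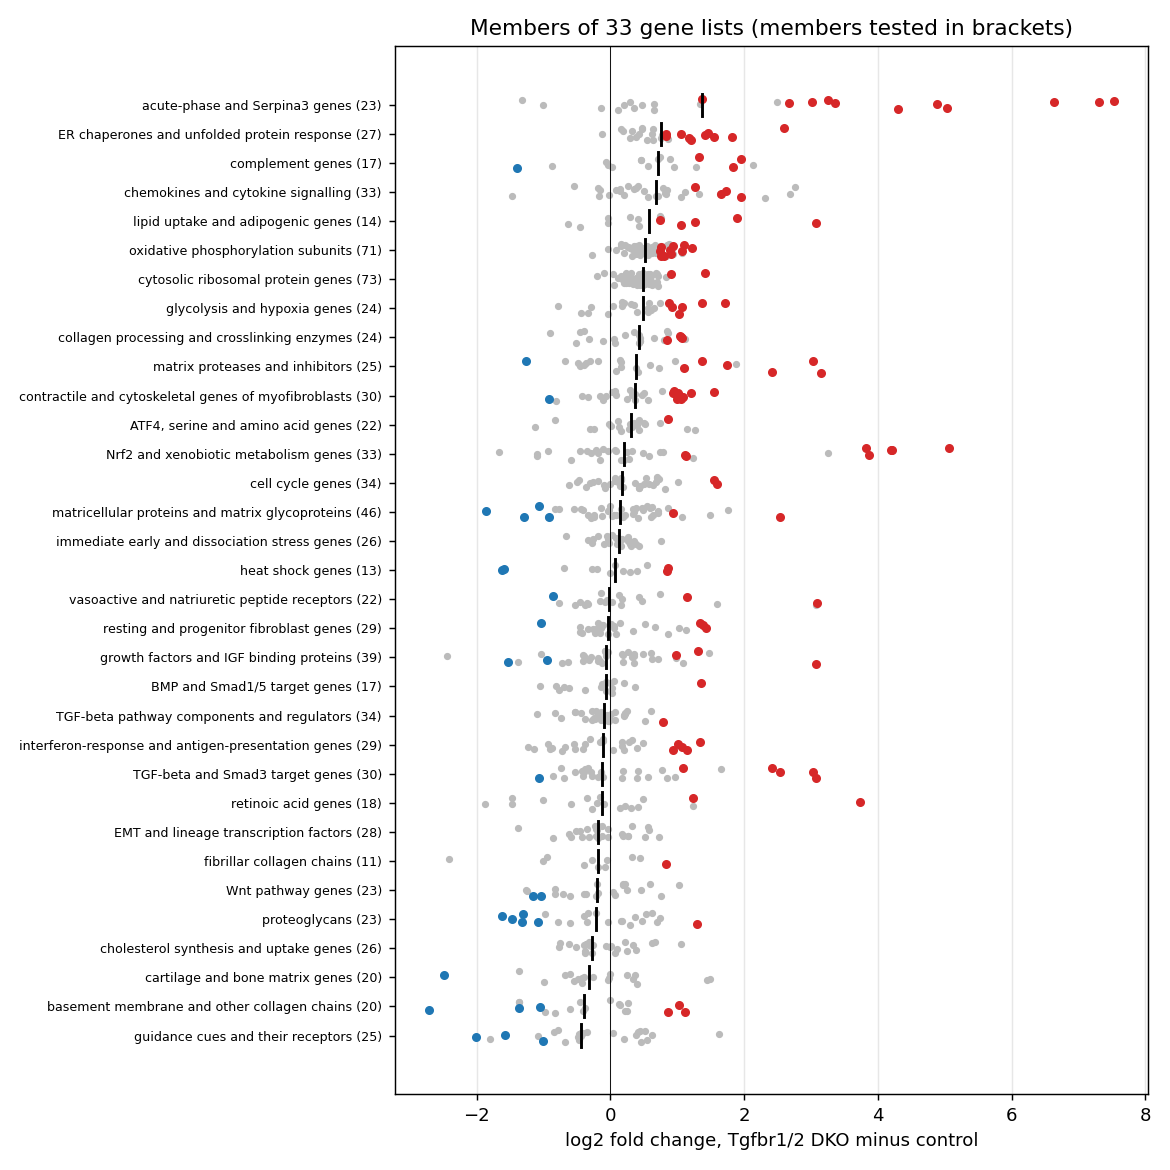
Log2 fold change (DKO minus control) of every tested member of 33 gene lists, ordered by median; red and blue points passed the threshold upwards and downwards, grey points did not, and black bars are medians. The acute-phase list has the highest median, 1.37, and the guidance list the lowest, -0.43 (0.05 without control HK6).

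Some genes of energy metabolism were higher. Of 24 tested glycolysis and hypoxia genes (25 listed), 6 rose and none fell (median 0.48). The enolase Eno1 went from 45.7 and 53.0 to 158 and 149 CPM (log2 fold change 1.71 ± 0.19, adjusted p = 0.00150), and the kinase Pgk1 from 53.7 and 42.8 to 102 and 132 CPM (log2 fold change 1.38 ± 0.21, adjusted p = 0.00878). Ldha, Aldoa, Gapdh and Pkm, further glycolytic enzymes, rose by 1.08, 0.93, 1.03 and 0.88 (adjusted p = 0.0222, 0.0291, 0.0308 and 0.0350). Processed copies elsewhere in the genome can share reads with some of these genes. Of 71 oxidative phosphorylation subunits, 10 rose and 69 were above 0 (median 0.52), with Atp5g1 from 68.2 and 80.3 to 151 and 147 CPM (log2 fold change 1.08 ± 0.19, adjusted p = 0.0155) and Cox5a from 10.4 and 10.6 to 22.7 and 23.4 CPM (log2 fold change 1.22 ± 0.23, adjusted p = 0.0215). Of 73 cytosolic ribosomal protein genes, 71 were above 0 (median 0.49), yet 2 passed, Rps2 from 227 and 256 to 609 and 612 CPM (log2 fold change 1.42 ± 0.21, adjusted p = 0.00709) and Rpsa from 361 and 428 to 675 and 725 CPM (log2 fold change 0.91 ± 0.22, adjusted p = 0.0487). With the length and GC trends removed, the medians were 0.38 and 0.25, and 4 oxidative phosphorylation and 1 ribosomal gene passed. The main calls were 14.1% of the oxidative phosphorylation and 2.74% of the ribosomal genes, against 3.94% of all tested genes. Of all 16661 tested genes, 8174 were above 0. Dropping 1 library ended the call of Pgk1 without control HK7, of Ldha, Pkm and Cox5a without control HK6, control HK7 or DKO HK4, of Aldoa, Gapdh and Rpsa in all 4 cases and of Atp5g1 without control HK6 or DKO HK4 (adjusted p up to 0.238), and left 0 (without control HK6) to 3 (without control HK7) oxidative phosphorylation genes higher and 1 (without control HK7) to 5 (without DKO HK2) glycolysis genes higher. Calls also ended with the length and GC trends removed for Aldoa, Pkm and Rpsa, and without robust estimation for Pkm and Rpsa, and in the fit of all 8 libraries for Cox5a, and with DESeq2-type size factors for Rpsa.

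Drug-metabolising UDP-glucuronosyltransferases of the Ugt1a locus (chromosome 1, 88055388 to 88218997) rose together. Ugt1a6b went from 0.685 and 0.719 to 24.6 and 20.3 CPM (log2 fold change 5.07 ± 0.32, adjusted p = 4.76e-05) and Ugt1a6a from 2.91 and 1.88 to 35.9 and 30.4 CPM (log2 fold change 3.87 ± 0.28, adjusted p = 9.07e-05). Ugt1a7c, Ugt1a9 and Ugt1a1 rose by 3.83, 4.21 and 4.199 (adjusted p = 0.00602, 0.00665 and 0.00665). All genes of this locus share their last exons, so reads from 1 of them can count for all, and which first exon was used is uncertain. With Mgst1 and the cytochrome P450 gene Cyp1b1, 7 of 33 tested xenobiotic genes (34 listed) rose and none fell. That is 21.2% called, against 3.94% of all tested genes. The oxidant-response genes of that list did not pass. Hmox1, the haem oxygenase, went from 2670.3 and 355 to 282 and 984 CPM (adjusted p = 0.749) and Slc7a11, the cystine transporter, from 122 and 4.07 to 16.5 and 36.4 CPM (adjusted p = 0.830), and control HK6 stood far above control HK7 in both. Nqo1 went from 4.35 and 2.36 to 3.53 and 3.17 CPM (adjusted p = 0.933). Leaving out 1 library ended the call of Cyp1b1 without control HK6 or DKO HK4 (adjusted p up to 0.0804). Other settings ended calls in the fit of all 8 libraries for Mgst1.

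Retinoid and lipid genes held a few large rises. Aldh1a2, which makes retinoic acid and is high in epicardium and in injured stroma, went from 49.3 and 16.5 to 387 and 419.9 CPM (log2 fold change 3.73 ± 0.53, adjusted p = 0.0293), and Aldh1a3 from 17.7 and 23.0 to 50.8 and 40.6 CPM (log2 fold change 1.24 ± 0.22, adjusted p = 0.0179). They were the 2 of 18 retinoid genes that rose, and none fell (11.1%, against 3.94% of all tested genes). Other settings did have retinoid genes lower: 3 with DESeq2, 2 without the low-count filter, 1 without robust estimation and 1 in the fit of all 8 libraries. Aldh1a1 went from 268 and 265 to 199 and 197 CPM (adjusted p = 0.334) and the retinoic acid hydroxylase Cyp26a1, a target of retinoic acid, from 4.25 and 8.21 to 2.18 and 2.14 CPM (adjusted p = 0.0936). Of 14 tested lipid genes (19 listed), 5 rose and none fell (35.7% called). Beside Angptl4, Fkbp5, a chaperone of steroid receptors, rose from 25.7 and 22.8 to 63.3 and 46.9 CPM (log2 fold change 1.26 ± 0.20, adjusted p = 0.00935). The fatty acid carriers Fabp4 and Cd36 rose by 1.06 and 0.75 (adjusted p = 0.0277 and 0.0498). Pparg, the adipogenic receptor, rose from 1.34 and 0.924 to 4.30 and 3.67 CPM (log2 fold change 1.90 ± 0.45, adjusted p = 0.0445). None of 26 tested cholesterol genes passed with edgeR or DESeq2, and 4 had an unadjusted p under 0.05. The epicardial marker sum was 84.0 and 46.4 CPM in the control libraries and 429.6 and 445 CPM in the DKO libraries. Aldh1a2 made up most of the DKO sums (387 and 419.9 CPM), but only 49.3 and 16.5 CPM of the control sums. Of 6 tested epicardial markers (12 listed), 2 were higher, none lower and 4 did not pass (33.3% called). The median was 2.61, and 4 had a log2 fold change above 0. Of the other epicardial markers, Krt18 had no count in the 4 libraries, Wt1 went from 1.61 and 1.54 to 0.982 and 0.668 CPM (adjusted p = 0.444), and Lrrn4 had no control count against 58 and 24 counts, at least 12.6-fold higher with 3 counts per control library as the floor. Omitting a single library ended the call of Aldh1a2 without DKO HK2 or DKO HK4, of Aldh1a3 without control HK6, of Fabp4 without control HK6, DKO HK2 or DKO HK4, of Cd36 and Pparg in all 4 cases and of Lrrn4 without control HK7 or DKO HK2 (adjusted p up to 0.292). Further calls were lost without the low-count filter for Aldh1a2, and with the length and GC trends removed for Aldh1a2 and Pparg, and in the fit of all 8 libraries for Aldh1a3, Fkbp5, Fabp4, Cd36, Pparg and Lrrn4, and without robust estimation for Cd36 and Pparg, and with DESeq2-type size factors for Cd36.

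The largest falls were of genes with mixed functions. Of the 12, Gal3st2, Col4a3, Gpr39 and Heatr7b1 lie on chromosome 1, as do Serpinb2, Ifi202b, Ugt1a6a and Ugt1a6b of the largest rises. Gal3st2 belongs to a run of 3 lower neighbours there (93824909 to 93942650), with D2hgdh and the predicted gene Gm9994. Heatr7b1 starts at 88226986, past the end of the rising Ugt1a locus (88218997). The part of linked sequence in these changes was not tested. Rab6b (chromosome 9, 103111787 to 103185276), a small GTPase of Golgi transport, went from 91.8 and 50.7 to 2.36 and 3.07 CPM (log2 fold change -4.61 ± 0.33, adjusted p = 2.16e-04), and Gal3st2, a galactose sulfotransferase, from 23.1 and 11.1 to 1.20 and 0.601 CPM (log2 fold change -4.16 ± 0.45, adjusted p = 0.00187). Cap2, an actin-binding protein, went from 14.4 and 11.5 to 1.26 and 2.37 CPM (log2 fold change -2.73 ± 0.39, adjusted p = 0.00665) and Dsp (desmoplakin), which links filaments to desmosomes, from 16.1 and 13.4 to 3.96 and 3.51 CPM (log2 fold change -1.90 ± 0.29, adjusted p = 0.00770). Gpr39, a zinc-sensing receptor, went from 49.2 and 32.2 to 10.8 and 9.39 CPM (log2 fold change -1.93 ± 0.24, adjusted p = 0.00293). Beside Col4a3, Smoc1 and Sema3d, the other falls among the 12 largest were those of Ccdc3, from 98.8 and 87.3 to 12.9 and 22.2 CPM (adjusted p = 0.00745), and of Dzank1, Zfp949 and Heatr7b1, with log2 fold changes of -2.58, -2.51 and -1.91 (adjusted p = 0.00259, 0.0147 and 0.0193). The 12 falls were picked only among genes whose groups did not overlap, so all DKO libraries lie below all controls by choice. The groups did not overlap in 51.2% of all tested genes. Removal of 1 library ended the call of Heatr7b1 without control HK7 or DKO HK4 (adjusted p up to 0.0913). Calls were lost as well in the fit of all 8 libraries for Dsp and Heatr7b1.

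A few guidance genes, which steer axons and vessels, were lower. Of 25 tested (26 listed), 3 fell and none rose (12.0%, against 3.94% of all tested genes). The median was -0.43, but 0.05 without control HK6. Sema3d, a secreted semaphorin, went from 81.0 and 55.7 to 14.4 and 17.5 CPM (log2 fold change -2.004 ± 0.24, adjusted p = 0.00225). Plxna4, a semaphorin receptor, went from 65.2 and 104 to 24.5 and 29.2 CPM (log2 fold change -1.58 ± 0.28, adjusted p = 0.0217) and the ephrin receptor Epha7 from 33.1 and 28.6 to 13.3 and 15.5 CPM (log2 fold change -1.01 ± 0.23, adjusted p = 0.0356). Of 23 tested Wnt genes (25 listed), 2 fell and none rose (8.70%, against 3.94% of all tested genes). The ligand Wnt5a went from 54.6 and 47.9 to 25.3 and 18.6 CPM (log2 fold change -1.15 ± 0.20, adjusted p = 0.0153) and Dkk3 from 742 and 951 to 374 and 412 CPM (log2 fold change -1.03 ± 0.23, adjusted p = 0.0382). Of 17 tested BMP genes (20 listed), 1 rose (5.88%, against 3.94% of all tested genes). Bmper, an extracellular BMP modulator, went from 72.2 and 83.5 to 179 and 199 CPM (log2 fold change 1.36 ± 0.20, adjusted p = 0.00728). Of 39 tested growth factor genes (41 listed), 3 rose and 2 fell (12.8%, against 3.94% of all tested genes). The angiopoietins, ligands of the receptor Tek, fell, Angpt2 from 11.6 and 14.5 to 4.33 and 4.28 CPM (log2 fold change -1.53 ± 0.30, adjusted p = 0.0231) and Angpt1 from 34.6 and 27.2 to 14.1 and 15.9 CPM (log2 fold change -0.95 ± 0.23, adjusted p = 0.0460). Beside Angptl4 and Figf (Vegfd), Fstl3, an activin antagonist, rose from 19.3 and 14.3 to 36.5 and 41.4 CPM (log2 fold change 1.31 ± 0.23, adjusted p = 0.0144). Of 22 tested vasoactive genes (27 listed), 2 rose and 1 fell (13.6%, against 3.94% of all tested genes). Agt (angiotensinogen) rose from 0.514 and 0.650 to 4.33 and 5.11 CPM (log2 fold change 3.09 ± 0.48, adjusted p = 0.00875), the sphingosine phosphate receptor S1pr3 by 1.15 (adjusted p = 0.0149), and the natriuretic peptide receptor Npr2 fell from 54.4 and 50.4 to 31.1 and 24.0 CPM (log2 fold change -0.85 ± 0.19, adjusted p = 0.0380). The leave-one-out fits ended the call of Plxna4 and Figf without control HK7 or DKO HK2, of Epha7, Angpt1 and Npr2 in all 4 cases, of Wnt5a without DKO HK4, of Dkk3 and Angpt2 without control HK7, DKO HK2 or DKO HK4 and of Fstl3 and S1pr3 without control HK7 or DKO HK4 (adjusted p up to 0.250), and left 1 (without control HK7 or DKO HK2) to 3 (without DKO HK4) guidance genes lower. Calls also ended with the length and GC trends removed for Plxna4, Epha7, Angpt1 and Figf, and without robust estimation for Epha7, Dkk3, Angpt1, Figf and Npr2, and in the fit of all 8 libraries for Wnt5a, Angpt2, Angpt1, Fstl3, Figf, Agt and Npr2.

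Genes of the resting state, of lineage, of stress and of the cell cycle passed in part. Of 29 tested resting fibroblast genes (30 listed), 3 rose and 1, Dkk3, fell (13.8%, against 3.94% of all tested genes). Ly6a (Sca-1), a progenitor antigen, went from 385 and 359 to 1060.5 and 850.1 CPM (log2 fold change 1.44 ± 0.21, adjusted p = 0.00665), Dpep1 from 322 and 236 to 721 and 616 CPM (log2 fold change 1.34 ± 0.21, adjusted p = 0.00953) and Hsd11b1, which activates glucocorticoids, from 48.0 and 23.2 to 87.2 and 86.1 CPM (log2 fold change 1.38 ± 0.29, adjusted p = 0.0448). Ly6a lies in a run of rising neighbours on chromosome 15 with Ly6c1, Ly6c2 and Gpihbp1. None of 28 transcription factors of lineage and mesenchymal transition passed with edgeR (1 with DESeq2, and 3 at an unadjusted p under 0.05), with Tbx20 from 784 and 685 to 598 and 447 CPM (adjusted p = 0.302) and Klf4 from 554 and 528 to 609 and 621 CPM (adjusted p = 0.503). None of 26 immediate early genes of dissociation stress passed with edgeR or DESeq2, or at an unadjusted p under 0.05, with Egr1 from 4473 and 6786 to 6630.3 and 4118 CPM (adjusted p = 0.988) and Zfp36 from 2816 and 3856 to 3284 and 3766 CPM (adjusted p = 0.793), though 1 was higher without DKO HK2. Of 13 heat shock genes, 4 passed (30.8%), and the near-identical Hspa1a and Hspa1b fell, Hspa1a from 210.5 and 122 to 45.1 and 55.4 CPM (log2 fold change -1.62 ± 0.26, adjusted p = 0.0147) and Hspa1b with a log2 fold change of -1.59 (adjusted p = 0.0324). The small heat shock genes Hspb1 and Hspb8 rose by 0.87 and 0.85 (adjusted p = 0.0441 and 0.0380). Of 34 cell cycle genes, 2 rose (5.88%, against 3.94% of all tested genes). Ccnd1 (cyclin D1) went from 73.0 and 34.6 to 169.6 and 126 CPM (log2 fold change 1.55 ± 0.31, adjusted p = 0.0431). Mcm2, a replication licensing factor, went from 3.60 and 5.17 to 13.4 and 11.8 CPM (log2 fold change 1.59 ± 0.32, adjusted p = 0.0234). Fits without 1 library ended the call of Dpep1 without control HK7, of Hsd11b1 and Ccnd1 without control HK7, DKO HK2 or DKO HK4, of Hspa1b without DKO HK2, of Hspb1 and Mcm2 without control HK6, DKO HK2 or DKO HK4 and of Hspb8 in all 4 cases (adjusted p up to 0.228). Other settings ended calls in the fit of all 8 libraries for Hsd11b1, Hspb1, Hspb8, Ccnd1 and Mcm2, and with the length and GC trends removed for Hsd11b1, Hspa1b, Hspb1, Hspb8 and Ccnd1, and without robust estimation for Hspb1 and Hspb8.

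The markers were those of fibroblasts in all 4 libraries. Summed fibroblast identity markers were 39699 and 46737 CPM in the control libraries and 36540.4 and 36150.4 CPM in the DKO libraries. Pdgfra went from 745 and 791 to 797 and 716 CPM (adjusted p = 0.916). Of these 13 markers, 1 passed, S100a4, from 44.3 and 31.2 to 129.7 and 86.2 CPM (log2 fold change 1.59 ± 0.22, adjusted p = 0.00615). Other cell types gave smaller sums. Myeloid markers summed to 67.2 and 108 CPM in the control libraries and 265 and 273 CPM in the DKO libraries. Of 18 tested (22 listed), 6 were higher and none lower (33.3%, against 3.94% of all tested genes). All 18 had a log2 fold change above 0 (median 1.79). The monocyte and neutrophil genes Ccr2, S100a8 and S100a9 were under 1 CPM in every library, while the macrophage genes Emr1 and Cd14 rose, Emr1 from 0.411 and 1.13 to 3.90 and 4.21 CPM (log2 fold change 2.46 ± 0.56, adjusted p = 0.0397) and Cd14 from 1.85 and 3.01 to 8.22 and 8.58 CPM (log2 fold change 1.86 ± 0.38, adjusted p = 0.0251). Of the other called members, Itgam went from 3.08 and 2.22 to 8.59 and 7.95 CPM (log2 fold change 1.72 ± 0.34, adjusted p = 0.0231), Cd74 from 12.7 and 22.2 to 43.7 and 57.1 CPM (log2 fold change 1.61 ± 0.33, adjusted p = 0.0380) and Csf1r from 5.93 and 8.38 to 15.1 and 19.2 CPM (log2 fold change 1.34 ± 0.30, adjusted p = 0.0382). The pan-leukocyte marker Ptprc went from 1.27 and 0.890 to 1.69 and 2.07 CPM (adjusted p = 0.389), Cd68 from 22.1 and 13.8 to 18.4 and 15.5 CPM (adjusted p = 0.991) and the lysozyme Lyz2 from 9.90 and 26.6 to 82.5 and 90.6 CPM (adjusted p = 0.102). Dropping 1 library ended the call of Emr1 without control HK6, DKO HK2 or DKO HK4, of Cd14 and Cd74 without control HK6 or DKO HK4, of Itgam without control HK7, DKO HK2 or DKO HK4 and of Csf1r without control HK6, control HK7 or DKO HK4 (adjusted p up to 0.219), and left 0 (without DKO HK4) to 10 (without control HK7) myeloid markers higher. Further calls were lost in the fit of all 8 libraries for Emr1, Cd14, Cd74 and Csf1r, and without robust estimation for Emr1 and Csf1r, and with the length and GC trends removed for Emr1 and Cd74.

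Endothelial markers summed to 643 and 619 CPM in the control libraries and 914 and 864 CPM in the DKO libraries. Of the 21 markers, 5 were higher (23.8%, against 3.94% of all tested genes). They were Eng, Ly6c1, Fabp4, Cav1 and Plvap, with Ly6c1 from 46.3 and 40.1 to 150.3 and 115 CPM (log2 fold change 1.69 ± 0.19, adjusted p = 0.00139), Plvap from 4.56 and 2.87 to 11.1 and 8.95 CPM (log2 fold change 1.51 ± 0.33, adjusted p = 0.0322) and Cav1 from 73.6 and 70.4 to 114 and 125 CPM (log2 fold change 0.82 ± 0.18, adjusted p = 0.0366). The defining genes Pecam1 and Cdh5 went from 16.6 and 18.9 to 29.0 and 26.5 CPM and from 32.0 and 45.6 to 52.0 and 61.6 CPM (adjusted p = 0.0977 and 0.183), and Tek from 163 and 124 to 88.1 and 81.8 CPM (adjusted p = 0.0773). Cardiomyocyte markers summed to 591 and 610.3 CPM in the control libraries and 702 and 605 CPM in the DKO libraries, with none of 20 tested past the threshold with edgeR (1 with DESeq2, and 2 at an unadjusted p under 0.05). Pericyte and smooth muscle markers summed to 1285 and 923 CPM in the control libraries and 1233 and 1300.5 CPM in the DKO libraries. Of these 16 markers 1, Acta2, was higher (6.25%, against 3.94% of all tested genes). None of 8 Schwann cell, 4 lymphocyte or 5 erythroid genes passed with edgeR (0, 0 and 4 with DESeq2, and 1, 0 and 3 at an unadjusted p under 0.05), and Ms4a1 of B lymphocytes had no count. Erythroid markers summed to 26.4 and 43.1 CPM in the control libraries and 135 and 47.4 CPM in the DKO libraries, with DKO HK2 apart from the other libraries. The part of these other cell types in the gene group results was not tested. Leaving out 1 library ended the call of Plvap without control HK7, DKO HK2 or DKO HK4 and of Cav1 in all 4 cases (adjusted p up to 0.232), and left 1 (without DKO HK4) to 2 (without control HK6, control HK7 or DKO HK2) endothelial markers higher. Calls were lost as well in the fit of all 8 libraries for Plvap and Cav1, and with the length and GC trends removed for Plvap, and without robust estimation for Cav1.

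**Figure D4:**
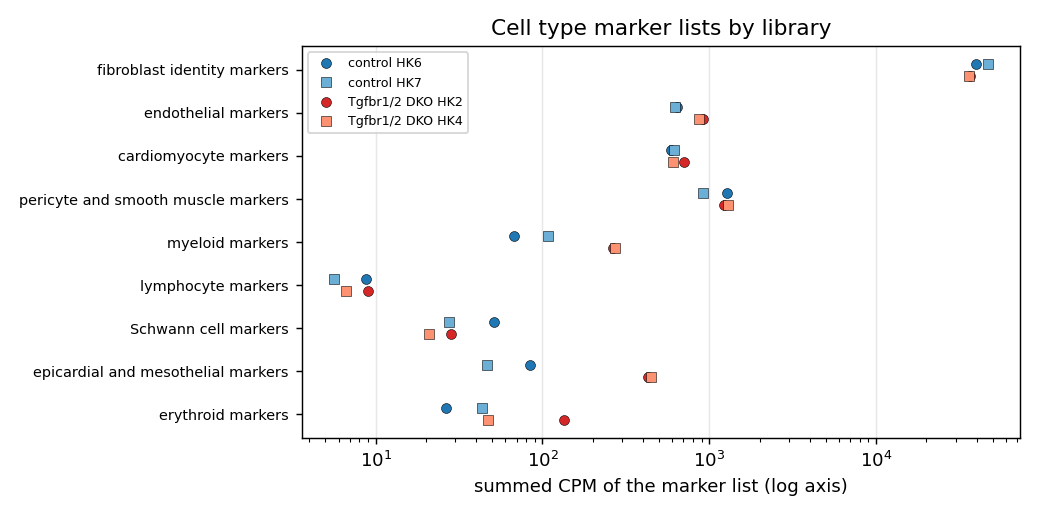
Summed CPM of each cell type marker list in each library, on a log axis; blue points are control and red points DKO libraries. The myeloid, endothelial, epicardial and erythroid sums are above both controls in both DKO libraries, the erythroid sum narrowly so in DKO HK4. The fibroblast sum is below both controls in both.

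The Tgfbr1/2 effect was set against the Smad2/3 effect to ask where loss of the receptors differs from loss of the transducers. Run, Cre driver and targeted genes change together between the comparisons and cannot be told apart. Of 17772 genes, 326 (1.83%) had a called difference, 208 with the Tgfbr1/2 effect above the Smad2/3 effect and 118 below. Of the 657 genes called in the Tgfbr1/2 comparison, 168 were among them. In the fit of all 8 libraries, log2 effects are given first for Tgfbr1/2 and then for Smad2/3. Angptl4 had effects of 3.09 against -2.17, difference 5.25 ± 0.31, adjusted p = 3.22e-05. Adam12 had effects of 2.43 against -3.67, difference 6.11 ± 0.39, adjusted p = 3.22e-05. Both were thus above 0 in the receptor knockout and below 0 in the Smad2/3 knockout. Timp1 showed 3.04 against -0.07, difference 3.12 ± 0.25, adjusted p = 2.13e-04, and Tnc 2.55 against -1.23, difference 3.77 ± 0.34, adjusted p = 4.21e-04. Col4a1 and Col4a2 showed 1.12 against -1.02, difference 2.15 ± 0.25, adjusted p = 0.00313, and 1.04 against -1.16, difference 2.19 ± 0.26, adjusted p = 0.00320. Col3a1 showed -0.27 against -2.15, difference 1.88 ± 0.37, adjusted p = 0.0317, while for Col1a1 the difference did not pass (-0.18 against -1.69, difference 1.51 ± 0.38, adjusted p = 0.0754).

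Genes that fell in the receptor knockout and had differences below 0 included Rab6b (-4.60 against 1.43, difference -6.03 ± 0.43, adjusted p = 7.45e-05), Smoc1 (-1.85 against 2.12, difference -3.96 ± 0.42, adjusted p = 0.00138) and Sema3d (-1.99 against 1.35, difference -3.34 ± 0.29, adjusted p = 3.49e-04). Cwc22, a splicing factor with near-identical copies in the mouse genome, and Gabra3, a GABA receptor subunit, were also among the 5 smallest p-values. Their Tgfbr1/2 effects did not pass: Cwc22 went from 24.3 and 22.3 to 17.6 and 18.6 CPM (adjusted p = 0.529) and Gabra3 from 3.80 and 2.36 to 1.01 and 1.57 CPM (adjusted p = 0.234). Their differences thus came mainly from the other comparison, with -0.27 against 3.59, difference -3.86 ± 0.24, adjusted p = 3.22e-05, and -1.15 against 8.02, difference -9.17 ± 0.58, adjusted p = 3.22e-05. Serpina3n showed 3.03 against 1.17, difference 1.85 ± 0.30, adjusted p = 0.0167. For Adh1, Mmp3, Manf and Ptges the difference did not pass, with differences of 0.09, 0.61, -0.11 and -0.26 (adjusted p = 0.994, 0.702, 0.881 and 0.793). Leaving out DKO HK4, Smad2/3 DKO HK16, DKO HK2, control HK7, Smad2/3 DKO HK15 or Postn-Cre control HK3 left 89, 95, 123, 140, 170 and 179 called differences. Of the genes above, the difference of Col3a1 was lost without Postn-Cre control HK3, either Smad2/3 DKO library or DKO HK4 (adjusted p up to 0.0961), and that of Serpina3n without Smad2/3 DKO HK16 (adjusted p = 0.0701).

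**Figure D5:**
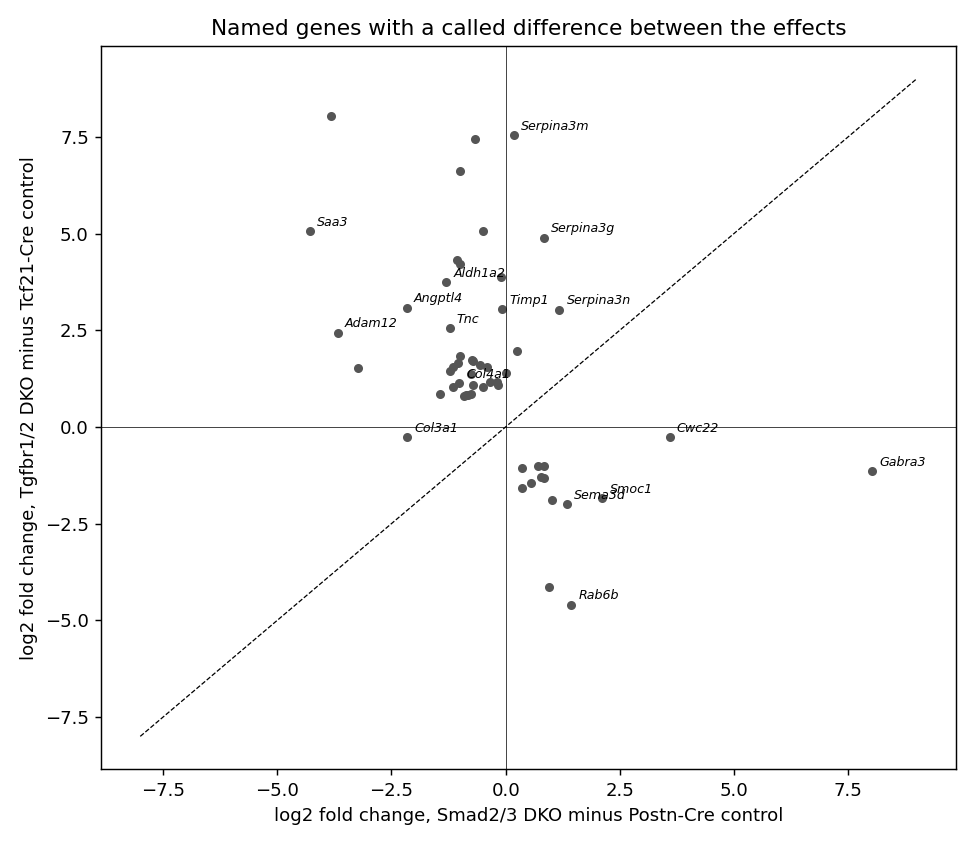
Log2 fold change in the Tgfbr1/2 comparison against that in the Smad2/3 comparison, both from the fit of all 8 libraries, for the 55 named genes with a called difference; the dashed line marks equal effects. Angptl4, Adam12, Saa3, Aldh1a2 and Tnc lie in the upper left, above 0 in the receptor knockout and below 0 in the Smad2/3 knockout. The Smad2/3 effects of Saa3 and Aldh1a2 did not pass by themselves (adjusted p = 0.146 and 0.121, edgeR).

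Promoter sequence was searched for motifs of factors tied to this pathway, on both strands of the 250 bases before each RefSeq start on GRCm38.p6. Promoters were matched by symbol for 292 of the 439 genes called higher, 126 of the 218 called lower and 10806 of the 16661 tested. A gene counted where any of its promoters held the motif. CAGAC was in 44.5% of the higher genes, 48.4% of the lower and 45.9% of all tested. The longer Smad3/4 forms were rare: GTCTAGAC was in 1 higher and 1 lower gene and in 0.222% of tested genes, and CAGACNGTC, which holds CAGAC, in 1 higher and 0 lower genes and 0.518% of tested. The AP-1 motif TGANTCA was in 9.93% of higher, 3.97% of lower and 5.83% of tested genes, and in 7.82% of all genes with a promoter. The Smad1/5 motif GGCGCC was in 18.1%, 15.1% and 18.6%, the TEAD motif GGAATG in 13.7%, 16.7% and 13.3%, the SRF motif (CArG box) in 2.40%, 1.59% and 1.47%, and TTCNNNGAA in 8.22%, 7.94% and 7.17%, in the same order. No test was run, and the shares are descriptions of these windows.

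Genes near the targeted loci were counted, because a targeted allele is inherited together with the sequence around it. Within 20 Mb of Tgfbr1, 11 of 246 tested genes passed (4.47%), among them Tnc, and within 20 Mb of Tgfbr2, 11 of 285 (3.86%), among them Rab6b and Manf. The share over all genes was 3.94%. Within 5 Mb the counts were 3 of 91 and 4 of 57.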

How the data were processed

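RNA of sorted cells was amplified with the NuGEN Ovation v2 kit, made into Nextera XT libraries and sequenced on an Illumina HiSeq, per the labels' protocols, which describe no step that keeps strand. Genes that overlap on opposite strands are therefore not separated. The authors deposited raw gene tables per run in expected counts, on mm10 per the submitters' processing notes. No source used here names the aligner, counter or annotation release. Log2 fold changes deposited by the authors served only for a comparison of signs.

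Expected counts were rounded and summed per symbol, which took 38087 entries to 34399 symbols (278 symbols joined 3966 entries). Of the values above 0, 11.8% were whole within 1e-06. CPM is the count over the library total. The tests used edgeR 4.0.16 (TMM, filterByExpr, robust quasi-likelihood F test, Benjamini-Hochberg over all tested genes, threshold 0.05) in R 4.3.3, with DESeq2 1.42.0 as an alternative; the difference between the effects was an interaction in the fit of all 8 libraries. SE is the fold change over the square root of F. The difference between libraries of a group, as chi-square per degree of freedom, was 71.5 (controls) and 46.0 (DKO). Length and GC trends were removed by lowess (span 0.5). The fitting was tested on simulated counts, where 15 of 149 calls were of unchanged genes. That share is above the threshold of 0.05, so calls near the threshold are less certain than their adjusted p-values say. Positions are from GENCODE vM21 (GRCm38).

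Named by rule were the targeted genes, the driver and 6 fibrosis genes, the 12 largest rises and falls past the threshold with groups apart and at least 10 CPM in the higher group, up to 5 called members of each of 42 lists by smallest p (2 highest by CPM where none was called), the 5 genes of lowest p in the test of the difference, and the 3 highest markers of other cell types. Predicted genes (Gm or Rik names) and pseudogenes were left out of the largest rises and falls. Other list members were named after their values were seen. Members and lists were chosen with earlier results of these data known.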

Additional observations from a re-analysis of the deposited data

Results flagged for a closer look

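The effect of Tgfbr1/2 loss differed from that of Smad2/3 loss for 55 named genes in edgeR's test of the difference itself, n = 2 libraries in each of 4 groups. Each value here is a difference on the log2 scale, the Tgfbr1/2 effect minus the Smad2/3 effect. The size of some is uncertain because counts were near 0 in libraries of the Smad2/3 comparison. In Postn-Cre control HK3 and HK4, then Smad2/3 DKO HK15 and HK16, Serpina3m had 0.0, 0.522, 0.509 and 0.0466 CPM (SE 1.42). Saa3 had 0.731, 0.218, 0.0 and 0.0466 CPM (SE 1.51), and Serpinb2 2.50, 3.05, 0.0 and 0.419 CPM (SE 1.44). Differences of acute-phase, complement and chemokine genes were 7.36 for Serpina3m, 4.05 for Serpina3g, 1.85 for Serpina3n, 9.35 for Saa3, 5.37 for Lcn2, 7.63 for Hp, 1.72 for C3, 2.84 for C2 and 2.71 for Cxcl12. Differences of metabolism genes were 5.56 for Ugt1a6b, 3.99 for Ugt1a6a, 5.21 for Ugt1a1, 5.04 for Aldh1a2, 5.25 for Angptl4, 2.46 for Eno1, 1.37 for Pgk1 and 1.54 for Gapdh. Differences of matrix and protease genes were 1.88 for Col3a1, 1.66 for Col5a3, 2.15 for Col4a1, 2.19 for Col4a2, 3.77 for Tnc, 3.12 for Timp1, 6.11 for Adam12, 1.81 for Tgm2, 2.30 for Fkbp10 and 11.86 for Serpinb2. Differences of receptors, antigens and markers were 1.96 for Itga5, 1.71 for Eng, 1.498 for S1pr3, 2.13 for Bmper, 2.67 for Ly6a, 2.41 for Ly6c1, 4.76 for Plvap, 1.68 for Cav1 and 2.17 for S100a4. Differences of the remaining genes above 0 were 8.14 for Ifi202b, 1.35 for Ifitm3, 1.25 for Ifitm2, 1.61 for Hspb8 and 2.70 for Ccnd1. Below 0 were those of matrix genes, with -3.96 for Smoc1, -2.06 for Wisp2, -2.01 for Ogn, -2.15 for Omd and -1.43 for Gpc6. Below 0 were those of guidance and Wnt genes, with -3.34 for Sema3d, -1.92 for Plxna4, -1.72 for Epha7 and -1.87 for Dkk3. Below 0 were those of the other genes, with -6.03 for Rab6b, -5.09 for Gal3st2, -2.90 for Dsp, -3.86 for Cwc22 and -9.17 for Gabra3. Of the 55 differences, 19 passed without each of the 8 libraries in turn, and between 24 and 50 of the 55 passed when 1 library was left out, fewest without Smad2/3 DKO HK16 and most without Postn-Cre control HK4. All 55 passed with DESeq2. Sequencing run, Cre driver and targeted genes change together between the comparisons and cannot be told apart.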

How the results depend on the processing

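The 657 calls of the receptor comparison became 1074 with DESeq2, 1198 without the low-count filter and 299 with all 8 libraries in one fit. Leaving out 1 library gave 273 (without DKO HK4) to 492 (without control HK6) calls. The 326 called differences between the effects became 1118 with DESeq2 and 1190 without the filter, and 89 (without DKO HK4) to 294 (without Postn-Cre control HK4) with 1 library left out. The count stayed within 1.5 times of 657 with DESeq2-type size factors (633), without robust estimation (473) and with the length and GC trends removed (453, an alternative chosen after seeing the data). Of 126 named calls, 126 were kept with DESeq2, 125 without the filter, 122 with DESeq2-type size factors, 102 without robust estimation, 94 with the trends removed and 82 with all 8 libraries. Without control HK6, control HK7, DKO HK2 and DKO HK4, 86, 71, 77 and 64 were kept. Under all these settings 49 of the 126 passed and none of the named calls reversed. The share of called differences in which the Tgfbr1/2 effect was the higher was 63.8%, and 55.9% to 75.6% over the fits without 1 library. No paired analysis was possible because the library numbers of the 2 groups (6 and 7, 2 and 4) share none. In simulated counts with the spread of these libraries, 100 genes per fold with a mean of at least 5 CPM were changed, and 39% of 2-fold and 95% of 4-fold changes were called in the receptor comparison over 16624 genes, and 2% and 61% for the difference over 17670 genes, so a difference that missed the threshold is weakly tested. Amplified reads without molecular identifiers mean that limits set by 3 counts cover counting error only.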

Other observations

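Of 22 tested genes of the ATF4 and amino acid response, 1 rose and none fell (4.55%, against 3.94% of all tested genes). It was Aldh18a1, which starts proline synthesis, from 70.3 and 46.0 to 97.6 and 101.38 CPM (log2 fold change 0.87 ± 0.21, adjusted p = 0.0484, edgeR). Omitting a single library ended the call of Aldh18a1 without control HK7, DKO HK2 or DKO HK4 (adjusted p up to 0.201). Calls also ended in the fit of all 8 libraries, without robust estimation, with DESeq2-type size factors and with the length and GC trends removed for Aldh18a1. With the trends removed the list had 0 higher and 1 lower. Of 20 tested cartilage and bone matrix genes (23 listed), 1 fell and none rose (5.0%, against 3.94% of all tested genes). Hapln1, which links hyaluronan to proteoglycans, fell from 5.45 and 2.46 to 0.675 and 0.635 CPM (log2 fold change -2.49 ± 0.54, adjusted p = 0.0314, edgeR). Removal of 1 library ended the call of Hapln1 without control HK6, DKO HK2 or DKO HK4 (adjusted p up to 0.166). Other settings ended calls in the fit of all 8 libraries, without robust estimation and with the length and GC trends removed for Hapln1. Of 654 called genes that the authors' deposited table of log2 fold changes holds, 622 had the same sign there.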
